A study of Mus musculus with 2 samples.

Results

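The genes described here are 10 transcripts of mast cells and eosinophils, measured in mouse tumours of Panc02 cells, a pancreatic carcinoma line. They were taken from a fixed list of names and matched, under their current or older names, to 12 probes on the array, out of 41174 probes and 28786 gene names in all. Cma1, Mcpt4, Tpsb2, Cpa3, Kit, Ms4a2 and Fcer1a are the 7 mast cell genes, and Il5ra, Epx and Prg2 are the 3 eosinophil genes. The members were chosen by name, with their intensities and differences on these arrays already known, so the differences are a description and carry no test. The enriched environment pool held tumour RNA of 6 C57BL/6 mice kept in an enriched environment, and the standard environment pool that of 6 C57BL/6 mice kept in standard housing. Mice of both groups were 3 weeks old when housing began, received Panc02 cells under the skin and lived 5 more weeks in the same housing. One array with a single dye was used per pool, so the spread between mice is not in the data and no p-value was computed. A level below is log2 of a probe's intensity over the intensity at the 75th percentile of that array, and a difference subtracts the standard level from the enriched level.

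Mast cells leave the bone marrow as precursors and mature in tissues under the Kit receptor and its ligand, stem cell factor. Their granules store chymases, tryptases and carboxypeptidase A3, which are released when antigen links IgE on the high-affinity IgE receptor, a complex of an alpha chain (Fcer1a), a beta chain (Ms4a2) and a shared gamma chain (Fcer1g). Eosinophils form in the marrow under interleukin 5, where they fill their granules with eosinophil peroxidase and major basic protein, and then enter tissues along eotaxin gradients. Both cell types are found in many solid tumours.

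The pools also differed in transcripts of other tissues. A list of 12 skeletal muscle genes made up 0.0997% of all probe signal in the enriched and 4.05% in the standard environment pool, and the enriched pool was lower by 2-fold or more in 12 of 12. The carcinoma epithelium genes were well above background on both arrays in 8 of 8 cases, with Krt8 at 7.33 in the enriched and 5.19 in the standard pool. The 10 macrophage genes took 0.275% and 0.262% of the signal in the enriched and standard pools, with a median difference of 0.05 and none past 2-fold. Of 10 fibroblast genes, 5 were higher and 3 lower by 2-fold or more, with a median of 1.08, and the median was 0.59 over 8 T cell genes and -0.12 over 6 measured dendritic cell genes. The part of these other cells in the differences below was not tested. Of 43379 spots that were not controls, 77.4% in the enriched and 77.2% in the standard pool were well above background, and 0 were saturated. In tissue RNA of this kind, fewer cells of a type and less RNA per cell cannot be told apart.

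Promoter sequences are shown for members with large differences between the pools, 3 mast cell proteases and an eosinophil pair that differed in opposite directions. They come from RefSeq on GRCm38.p6, each with 250 bases before and 50 bases after the transcription start, on the gene's own strand, and 8 of the 10 members had an entry, all but Tpsb2 and Prg2. Cma1 is at chr14:55944626-55944925, Mcpt4 at chr14:56062261-56062560, Cpa3 at chr3:20242132-20242431, Il5ra at chr6:106748988-106749287 and Epx at chr11:87875487-87875786, all on the minus strand. Capitals mark GATAA or its reverse complement TTATC, the core of the motif bound by GATA factors, which are needed for both cell types.
Cma1: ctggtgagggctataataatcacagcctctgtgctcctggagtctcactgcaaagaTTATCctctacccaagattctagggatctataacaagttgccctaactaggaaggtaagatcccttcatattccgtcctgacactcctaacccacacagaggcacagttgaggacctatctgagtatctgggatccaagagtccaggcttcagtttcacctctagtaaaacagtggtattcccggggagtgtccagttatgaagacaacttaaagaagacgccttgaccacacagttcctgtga
Mcpt4: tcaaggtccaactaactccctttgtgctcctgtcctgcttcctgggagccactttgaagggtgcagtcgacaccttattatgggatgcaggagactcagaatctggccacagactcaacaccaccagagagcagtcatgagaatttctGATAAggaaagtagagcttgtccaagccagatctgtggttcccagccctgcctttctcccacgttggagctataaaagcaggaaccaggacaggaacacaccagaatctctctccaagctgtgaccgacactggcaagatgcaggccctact
Cpa3: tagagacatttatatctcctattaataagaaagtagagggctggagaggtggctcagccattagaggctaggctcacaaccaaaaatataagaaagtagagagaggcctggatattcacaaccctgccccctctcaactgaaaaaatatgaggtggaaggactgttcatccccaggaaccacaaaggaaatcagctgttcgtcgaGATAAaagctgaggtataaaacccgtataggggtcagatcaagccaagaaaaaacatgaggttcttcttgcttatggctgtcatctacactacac
Il5ra: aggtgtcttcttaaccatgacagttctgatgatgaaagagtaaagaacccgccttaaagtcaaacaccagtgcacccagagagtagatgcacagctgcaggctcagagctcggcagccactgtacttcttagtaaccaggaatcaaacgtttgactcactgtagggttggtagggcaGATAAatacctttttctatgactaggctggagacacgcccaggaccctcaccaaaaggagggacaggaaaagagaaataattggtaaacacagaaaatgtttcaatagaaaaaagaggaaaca
Epx: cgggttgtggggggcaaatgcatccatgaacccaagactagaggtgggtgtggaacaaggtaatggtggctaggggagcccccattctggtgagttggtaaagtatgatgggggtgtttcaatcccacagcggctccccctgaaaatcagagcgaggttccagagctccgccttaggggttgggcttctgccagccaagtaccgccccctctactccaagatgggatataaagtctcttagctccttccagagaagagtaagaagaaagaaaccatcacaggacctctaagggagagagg
The motif was found in 6 of the 8 promoters, and in 25.8% of the 27025 promoters of the same length, with 1 promoter taken per gene. It began 194 bases before the start in Cma1, 102 in Mcpt4, 45 in Cpa3, 73 in Il5ra and 92 in Fcer1a. Ms4a2 held 3 matches, which 0.969% of promoters equal or exceed. Kit and Epx held none in this window. A match describes the sequence and does not show binding.

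The 4 granule protease genes among the members, Cma1, Mcpt4, Cpa3 and Tpsb2, had 2.27-fold to 4.42-fold higher levels in the enriched pool, whereas the receptor genes Kit and Fcer1a differed by -0.02 and 0.08 on the log2 scale. The eosinophil genes went in opposite directions, with the receptor gene Il5ra 15.8-fold higher and the granule protein gene Prg2 7.80-fold lower. Of the 8 members measured on both arrays, 5 were higher by 2-fold or more and 1 was lower by that much. Over all 20852 genes measured there, the shares were 5.71% higher and 9.46% lower. Because these arrays were used in naming the members, nothing is read from that contrast.

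**Figure D1:**
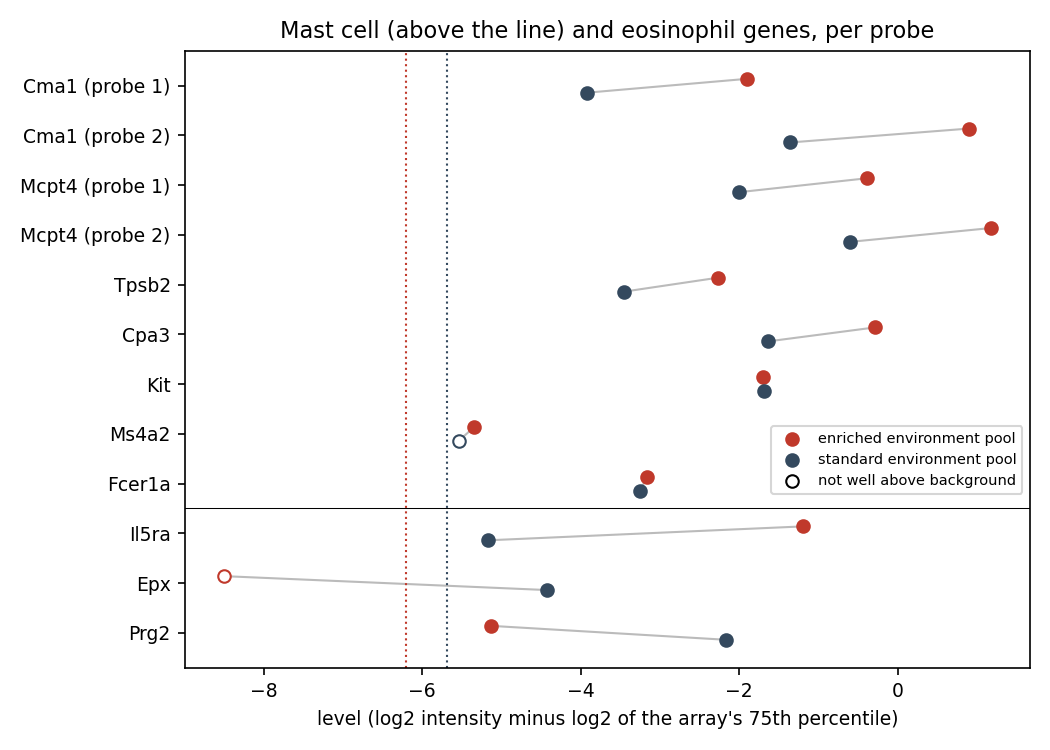
Levels of the 12 probes of mast cell genes (above the line) and eosinophil genes (below it) on the enriched (red) and standard (dark) environment arrays, in log2 relative to the array's 75th percentile. Open circles are not well above background, dotted lines mark the lowest level well above background on each array (-6.20 enriched, -5.68 standard), and the chymase and carboxypeptidase probes lie to the right in the enriched pool while the Kit and Fcer1a pairs nearly coincide.

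Cma1 encodes the alpha-type chymase of mouse mast cells, stored in connective tissue mast cells. Its probe with the brighter spot read an intensity of 1838 ± 184 in the enriched and 294 ± 29.5 in the standard environment pool, where the error is the scanner software's own for the spot. The other Cma1 probe read 264 ± 26.6 in the enriched and 49.5 ± 5.83 in the standard pool. Both probes were thus brighter in the enriched pool, with differences of 2.26 and 2.03 (SD between probes 0.16). After scaling, Cma1 was at -0.50 in the enriched and at -2.64 in the standard pool, 4.42-fold higher and rank 215 from the highest of 20852 differences. On mm7, the build of the array design, the brighter probe lies on chromosome 14 at 50808970 to 50809029, and the other spans 50810007 to 50811066.

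Mcpt4 encodes a chymase regarded as the functional counterpart of human chymase. Its probes read 2229 ± 223 and 751 ± 75.2 in the enriched pool, against 493 ± 49.5 and 188 ± 19.1 in the standard pool. The differences were 1.79 and 1.61, a mean of 1.70 or 3.25-fold, with an SD between probes of 0.12. The brighter Mcpt4 probe lies on chromosome 14 at 50927105 to 50927164 and the other at 50927256 to 50927314.

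Cpa3, the carboxypeptidase that trims peptides beside chymase in the same granules, read 804 ± 80.4 in the enriched and 242 ± 24.4 in the standard pool, 2.54-fold higher after scaling. Tpsb2, a tryptase named Mcpt6 on the array, read 204 ± 20.6 in the enriched and 68.7 ± 7.53 in the standard pool, 2.27-fold higher. All 4 protease members were higher in the enriched pool, and their median difference was 1.52. The scanner software's errors, carried to the log2 difference, were 0.20 to 0.22 for their 6 probes and cover technical error only. With background correction by a normexp model, the Tpsb2 difference was 0.71, under 2-fold. The Cpa3 probe lies on chromosome 3 from 19947691 to 19947750 and the Tpsb2 probe on chromosome 17 from 23550604 to 23550663.

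Kit, the receptor for stem cell factor, has a probe spotted 10 times on the array. The spots read 281 to 322 with a median of 300.2 in the enriched pool, and 221 to 249 with a median of 236 in the standard pool. Before scaling the spots of the pools did not overlap, while the 75th percentiles of the arrays themselves were 984 in the enriched and 753 in the standard pool. After scaling the spots ran from -1.81 to -1.61 in the enriched and from -1.76 to -1.60 in the standard pool and overlapped, with a difference of -0.02. Within an array the 10 spots had an SD of 0.07 in the enriched and 0.05 in the standard pool. Melanocytes also carry Kit. Of 8 melanocyte genes, 3 were measured on both arrays with a median difference of 0.07 and 0 past 2-fold. Dct and Mlana were well above background in the enriched pool only, at least 2.28-fold and at least 1.62-fold higher, Oca2 in the standard pool only, and Tyr and Tyrp1, which make melanin, on neither array. The 8 genes took 0.000317% of the signal in the enriched and 0.000292% in the standard pool. The part of other Kit-bearing cells in the Kit level was not tested. The Kit probe lies on chromosome 5 from 75074515 to 75074574.

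Of the IgE receptor chains, Fcer1a, which binds IgE, read 110 ± 11.4 in the enriched and 79.2 ± 8.49 in the standard pool. Scaled, it was at -3.16 and -3.25 in the enriched and standard pools, a difference of 0.08 that is smaller than the software's error of 0.22 and turned to -0.13 with the normexp correction. Ms4a2, which amplifies the receptor's signal, read 24.3 ± 4.53 in the enriched pool, where it was well above background, and 16.2 ± 3.97 in the standard pool, where it was not. The measured ratio was 1.15-fold in favour of the enriched pool. This is a log2 difference of 0.20, smaller than the software's error of 0.44, so its direction is open. The shared gamma chain gene Fcer1g was at 3.74 in the enriched and 3.78 in the standard pool. Of the 13 genes of the receptor's gamma chain and signalling steps, 13 were measured, 0 passed 2-fold in either direction, and the median difference was 0.14. The kinase genes Syk and Lyn differed by 0.40 and 0.00, and the adaptor gene Lat by 0.68. The Fcer1a probe lies on chromosome 1 from 173194818 to 173194877 and the Ms4a2 probe on chromosome 19 from 11297411 to 11297470.

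A list of 20 other mast cell genes had 14 measured on both arrays. Of these, 3 were higher by 2-fold or more and 0 lower by that much, and the median was 0.52 beside 0.03 for all genes. Mcpt2, a chymase of mucosal mast cells, was at -1.72 in the enriched and -3.75 in the standard pool, a difference of 2.03. Mlph, which links granules to the cytoskeleton in melanocytes, differed by 1.16, and Srgn, the proteoglycan core that holds proteases in granules, by 1.05. Srgn is made by many blood cells and Mlph by epithelia, whose 8 genes were all at least 2-fold higher in the enriched pool. The part of these cells in the Srgn and Mlph differences was not tested.

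The next genes of that list lay below 2-fold. Hdc, the enzyme that makes histamine, differed by 0.94, Rab27b by 0.76, the interleukin 33 receptor gene Il1rl1 by 0.70 (3 probes, SD 0.30) and Mcpt1, a second mucosal chymase, by 0.62. Slc18a2, which loads amines into granules, differed by 0.09, Tph1, which starts serotonin synthesis, by -0.33 and Hpgds, which makes prostaglandin D, by -0.37. Adora3 had the lowest difference of the genes measured on both arrays, -0.61. The SD between its probes was 1.22, so that they disagreed. Tpsg1 and Tpsab1, further tryptases, were well above background in the enriched pool only. Against its own dim standard signal Tpsg1 was 2.23-fold higher, and Tpsab1 was at least 1.49-fold higher. Mcpt9 and Mrgprb1 were not well above background on either array. Members of these protease families resemble each other in sequence, so that a probe may also read a relative.

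**Figure D2:**
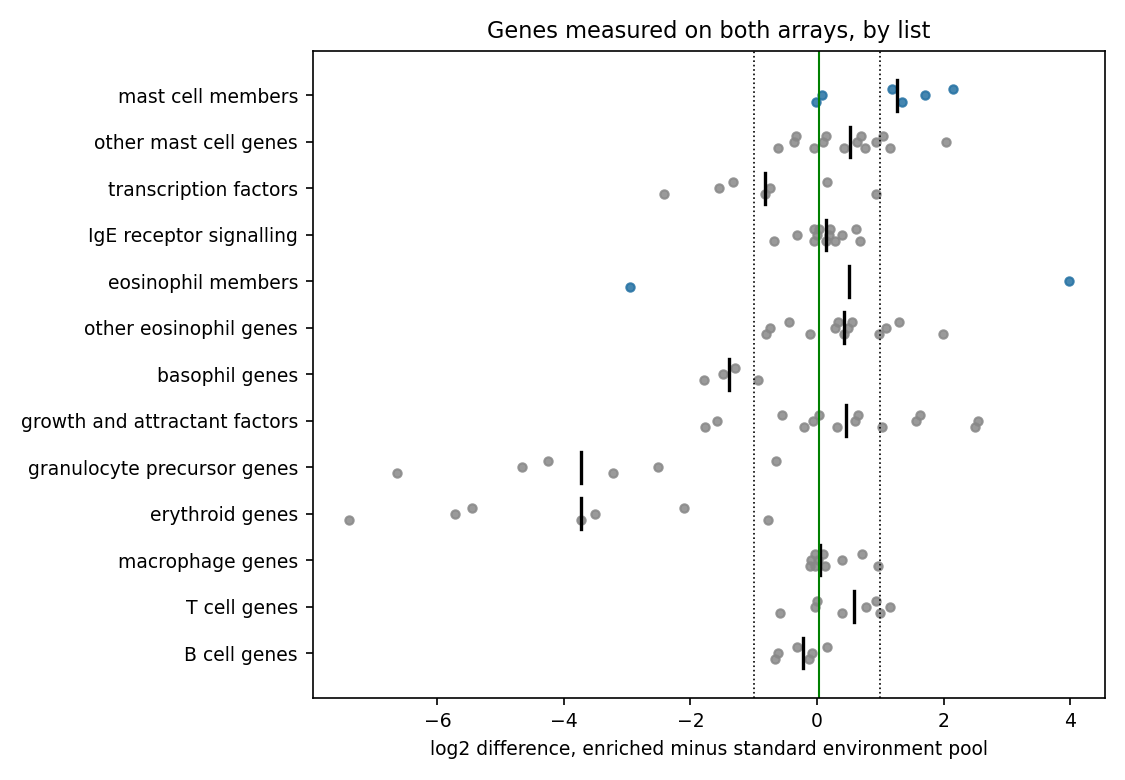
Log2 differences, enriched minus standard environment pool, of single genes measured on both arrays (points) with the list median (black bar), members in blue. The green line is the median of all measured genes, 0.03, dotted lines mark 2-fold, and the mast cell members fall into 4 points beyond 2-fold and 2 points near 0, while genes bright on 1 array only, such as Epx, are not drawn.

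Transcription factors of mast cells and other blood cells, taken as 1 list, lay lower in the enriched pool in most cases. Of 7 measured, the enriched pool was lower by 2-fold or more in 3 and higher by that much in 0, and the median was -0.82. Gata2, needed for mast cell and eosinophil precursors, was at -3.21 in the enriched and -1.88 in the standard pool, a difference of -1.33. Gata1 differed by -1.55 and Tal1 by -2.42, and Mitf, which drives Kit and protease genes, by -0.82. Cebpa, a myeloid factor, differed by 0.93 and Spi1, shared by many blood cells, by 0.16, the 2 of the 7 with a positive difference. Gata1, Tal1 and Zfpm1 are also erythroid genes. The erythroid list, with 7 measured members, was lower at a median of -3.73 and took 0.00507% of the signal in the enriched and 0.197% in the standard pool. Its part in the levels of these factors was not tested.

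Among the eosinophil genes, Il5ra, the interleukin 5 receptor alpha chain, had the largest difference of the 8 members measured on both arrays. Its probe read 430 ± 43.1 in the enriched and 20.9 ± 3.67 in the standard pool, and its level was -1.19 in the enriched and -5.17 in the standard pool. The difference of 3.98 was rank 12 from the highest of all measured genes. The standard level lay near the lowest level well above background on that array, -5.68. In the enriched pool the scanner software marked the Il5ra spot as not located, as it did for 2.29% of the spots well above background there. The raw mean was 470 over a local background of 31.0 in the enriched pool and 71.1 over 35.0 in the standard pool, and neither spot carried an outlier mark. The normexp correction gave 2.19. B cells of some kinds also carry this receptor chain. Of 8 B cell genes 6 were measured on both arrays, 0 passed 2-fold and the median was -0.22. The Il5ra probe lies on chromosome 6 from 106805113 to 106805172.

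Prg2, the major basic protein of the eosinophil granule, read 28.1 ± 3.91 in the enriched and 168 ± 17.0 in the standard pool. Its level of -5.13 in the enriched and -2.17 in the standard pool gave a difference of -2.96, rank 356 from the lowest, and -1.69 with the normexp correction. Epx, eosinophil peroxidase, read 2.71 ± 2.70 in the enriched pool, not well above background, and 35.0 ± 4.57 in the standard pool. It was thus at least 3.43-fold lower in the enriched pool. Both granule protein genes were brighter in the standard pool, opposite to Il5ra. The Prg2 probe lies on chromosome 2 from 84826358 to 84826417 and the Epx probe on chromosome 11 from 87934694 to 87934753.

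Granule genes of neutrophil precursors in marrow were lower in the enriched pool as well. Of 11 genes matched to a probe, 6 were measured on both arrays, of which 5 were lower by 2-fold or more, and the other 5 were well above background in the standard pool only. Mpo, the peroxidase related to Epx, differed by -6.65 and Ctsg by -4.67, and Elane and Ms4a3 were at least 20.8-fold and at least 21.5-fold lower. Camp and Ngp had the largest bounds, at least 290-fold and at least 233.5-fold lower. Prtn3 differed by -0.65, within 2-fold. The list took 0.00281% of the signal in the enriched and 0.0326% in the standard pool. Its part in the Epx and Prg2 levels was not tested. Of 4 measured basophil genes, 3 were lower by 2-fold or more. Prss34, a basophil protease, differed by -1.79, Cyp11a1 by -1.48 and Mcpt8 by -1.30. The median of the 4 was -1.39, and with the normexp correction it was -0.78, under 2-fold.

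A list of 18 further eosinophil genes, mostly of the cell surface and of ribonucleases, had 13 measured on both arrays. Of these, 3 were higher by 2-fold or more and 0 lower by that much, and the median was 0.42. Siglecf, a sialic acid receptor of mouse eosinophils that some macrophages share, had the largest difference of the 13, at -2.27 in the enriched and -4.27 in the standard pool. The eosinophil-associated ribonuclease genes Ear10 and Ear1 differed by 1.30 and 1.09, and Ear6 by 0.28 with an SD between its probes of 1.18, so that they disagreed. These ribonucleases are a family of near-identical genes, some of them made by macrophages, and their probes may not tell them apart. Ccr3, the eotaxin receptor, differed by -0.75 and Ptgdr2, a prostaglandin receptor, by -0.80. Csf2rb2 and Csf2rb, signalling chains that work with the interleukin 5 receptor or its relatives, differed by 0.98 and 0.50. Prg3, Alox15 and Ear14 were not well above background on either array.

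Factors that act on these cells were split. In the list of 20, 14 were measured on both arrays, and the enriched pool was higher by 2-fold or more in 5 and lower by that much in 2. The monocyte and eosinophil attractants Ccl8 and Ccl7 differed by 2.55 and 2.50, Ccl2 by 1.63 and Il18 by 1.03. The eotaxin gene Ccl24 differed by -1.77 and Il13 by -1.59, and the eotaxin gene Ccl11 by -0.20. Kitl, which encodes stem cell factor, was at 0.43 in the enriched and 0.41 in the standard pool. Il5 was well above background in the standard pool only, at least 1.59-fold lower in the enriched pool. Its standard level of -5.54 lay near the lowest level well above background on that array, -5.68. Il3, Il4 and Il9 were well above background on neither array.

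Cma1 and Mcpt4 lie in 1 locus on chromosome 14 with other serine proteases of immune cells, and the genes of that locus differed in both directions. In gene order from Cma1 to Gzmb on GRCm38.p6 there are 15 protein-coding genes, 14 of which were matched to a probe. Mcpt8 and Ctsg, of basophils and neutrophil precursors, which follow Mcpt4 directly, differed by -1.30 and -4.67. Beyond them the granzyme gene Gzmd differed by 2.07 and Gzmb by 0.49. Against its own dim standard signal Gzmc was 15.0-fold higher, and Gzme was at least 8.51-fold higher. Between the genes measured on both arrays the differences ran from -4.67 for Ctsg to 2.14 for Cma1.

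**Figure D3:**
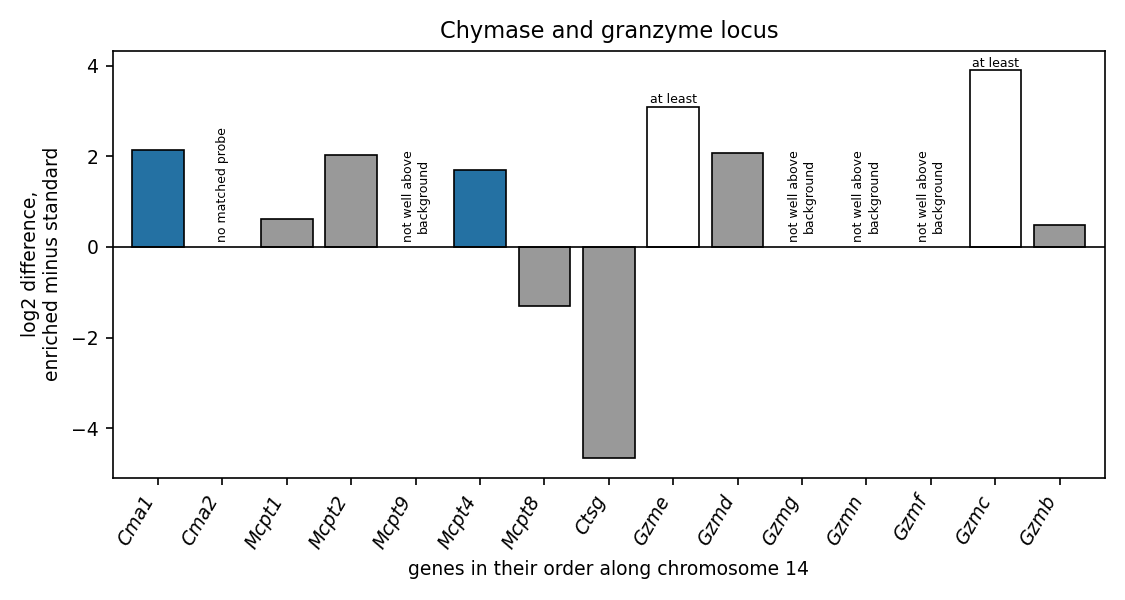
Log2 differences, enriched minus standard environment pool, of the genes from Cma1 to Gzmb in their order along chromosome 14. Filled bars are genes measured on both arrays, with Cma1 and Mcpt4 in blue, open bars are lower bounds, and the Mcpt8 and Ctsg bars point down between higher neighbours.

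Between the classes, the mast cell members measured on both arrays had a median difference of 1.26 (6 of 7) and the eosinophil members one of 0.51 (2 of 3). The eosinophil median is the midpoint of 3.98 and -2.96 and describes neither gene. With Ms4a2 at its measured difference and Epx at its bound, the median was 1.18 over the mast cell members and -1.78 over the eosinophil members. Under the other ways of processing, Cma1, Mcpt4 and Cpa3 stayed at least 2-fold higher, Kit stayed between -0.06 and -0.02, and Il5ra and Prg2, where they were kept, stayed past 2-fold in their directions.

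**Figure D4:**
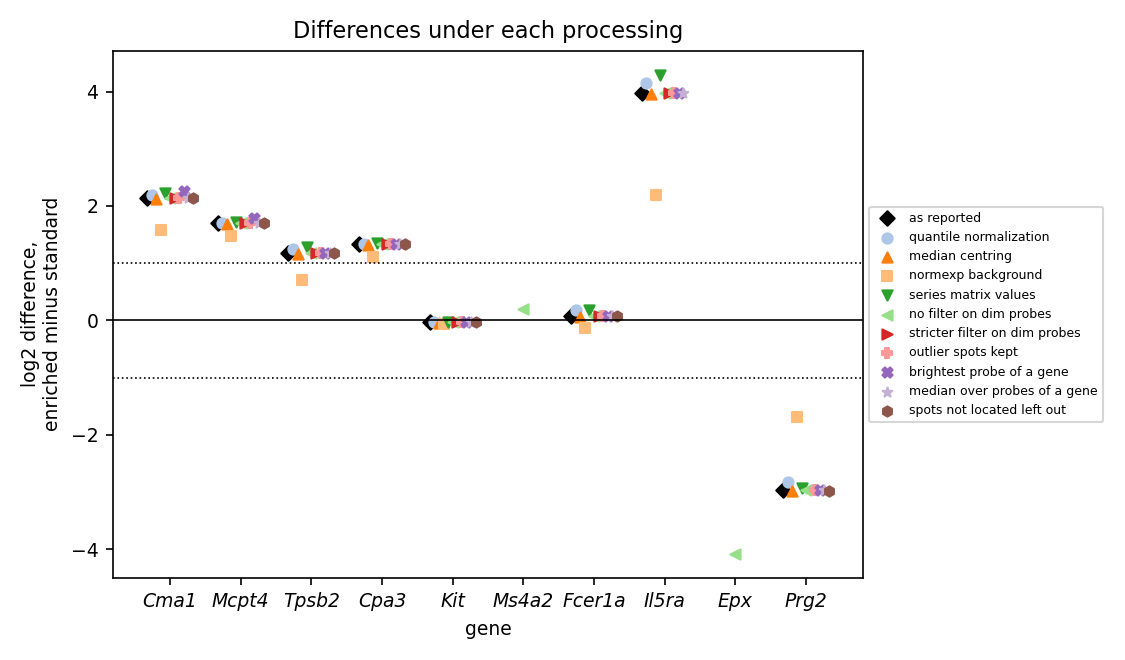
Log2 difference of each member, enriched minus standard environment pool, as reported (black diamonds) and under the alternatives in the legend, with 2-fold marked by dotted lines. Points of a gene lie close together except under the normexp background, which brings Cma1 to 1.57, Il5ra to 2.19 and Prg2 to -1.69, and Ms4a2 and Epx have a point only without the filter on dim probes.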

How the data were processed

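Total RNA of 6 tumours per housing group was pooled, and 0.2 ug was labelled with Cy3, per the labels' protocols. The authors' scanner files hold a linear intensity for each spot, with detrended background per the file headers. The submitters' processing notes name Agilent Feature Extraction, version 10.7.1.1. A deposited log2 table of 30319 probes was used as an alternative. Its columns correlated with log2 intensity at r = 1.00 for both pools, their medians were 8.56 (enriched) and 8.54 (standard), and its scaling and centring are unknown.

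Levels are log2 of the processed intensity over the array's 75th percentile of it, which was 984 in the enriched and 753 in the standard pool. The 1639 control spots and 70 (enriched) and 66 (standard) outlier spots were left out, spots of a probe and probes of a gene were averaged, and 30298 probes well above background on both arrays were used. Background correction moves dim spots most. A gene bright on 1 array was set against the higher of its own dim signal and the lowest signal well above background there, and is given as a bound. RefSeq accessions gave current symbols to 22951 of 41174 probes, and the rest kept the name in the file. Probe positions are on mm7, with no annotation of that build used here.

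Both arrays were on 1 slide. With 1 array per group there is no test, and calls are differences of at least 2-fold. All members were named, and of each list the members past 2-fold, up to 6, then the largest differences, with some further members named as needed for their role. The members, lists and alternatives were chosen with earlier results of these data known. No gene was named for likeness of pattern, because 2 arrays give each gene 1 difference. The steps were tested on simulated data. Python 3.11.15, R 4.3.3 and limma 3.58.1 were used.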

Additional observations from a re-analysis of the deposited data

How the results depend on the processing

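The number of arrays limits every value, the pools hold no spread between mice, and dim probes depend most on the background step. No paired analysis was possible because each group has 1 array, and leaving out an array leaves no comparison. With normexp the median of the mast cell members was 0.91 and that of the eosinophil members 0.25, and 668 in place of 1191 genes were at least 2-fold higher. The eosinophil median was 0.68 in the deposited log2 table, -2.96 without a filter on dim probes (where Epx enters), 3.98 with the stricter filter (where Prg2 drops out) and -2.97 without spots that were not located (where Il5ra drops out), the last an alternative chosen after seeing the data. The mast cell minus the eosinophil median was 0.76 as reported, and 4.15, -2.72 and 4.23 under these last 3 alternatives, so the sign of that contrast rests on which eosinophil gene is kept. Without a filter 3796 in place of 1972 genes were at least 2-fold lower. Mast cell members at least 2-fold higher numbered 4 under every alternative except normexp, where they numbered 3. The median of all genes ran from -0.11 to 0.12 over the alternatives.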
